A study of Mus musculus with 6 samples.

Results

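The nuclear receptor genes described here are 34 genes that encode receptors other than the thyroid hormone receptors, the RXRs, PPAR gamma and the receptors of the circadian clock. They were chosen as the rows whose gene symbol equals 1 of 34 listed symbols, and all 34 were found among the 55573 genes listed. The RNA came from inguinal white adipose tissue (iWAT), a fat depot under the skin, of 3 mutant and 3 Wt mice, and was measured by RNA-seq. All 6 mice were C57BL/6NTac males of 3 months, kept on regular chow and given no treatment, with 1 library per mouse. The mutant mice carried K283Q and K288R in both copies of Thra, which removes a site where SUMO is attached to the thyroid hormone receptor THRA. The change was made in the germline and is present in every tissue, so the data do not separate an effect in fat from one in another organ. The Wt mice were bred in house on the same strain and served as controls.

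Nuclear receptors are transcription factors, and most of them are switched by a small lipid-soluble ligand such as a steroid, a retinoid, an oxysterol or a fatty acid. Many of them, including the LXRs, PPARs, RARs and the vitamin D receptor, bind DNA as a pair with RXR, the partner that thyroid hormone receptors also use, while steroid receptors act as homodimers and others bind alone or have no known natural ligand. In fat, these receptors are known for their part in lipid storage and oxidation, in the response to glucocorticoids and sex steroids, and in the control of adipocyte differentiation.

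The mice had 19607423 to 24228381 reads on genes. A level is given as normalized CPM, that is CPM scaled by a further factor for each mouse, and 3 reads on a gene corresponded to 0.126 to 0.157 normalized CPM. That floor covers counting error only. Markers of adipocytes were high in every mouse, with 8 genes summing to 20970 to 29930 normalized CPM in Wt and 15990 to 24970 in mutant mice. Several other cell types varied between the libraries. The sum of 9 skeletal muscle markers was 8882 to 19010 in Wt and 14010 to 21880 in mutant mice, and 7 lymphocyte markers summed to 278 to 747 in Wt and to 4.56, 383 and 559 in mutant mice 1, 2 and 3. The sum of 8 mesothelial markers was 4.72 to 31.6 in Wt and 37.8 to 75.9 in mutant mice, and 7 of the 8 passed the test below as higher in mutant mice. Krt19, the marker that did not pass, made up 28.5 of the sum of 31.6 in Wt mouse 1. Its mean was 11.4 in Wt and 5.91 in mutant mice. The sum of 8 epithelial markers reached 85.7 in Wt mouse 1 and was 3.93 to 24.9 in the other 5 mice. Because the tissue is a mixture, fewer cells of a type and less RNA per cell cannot be told apart in any of the values below.

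Of the 34 receptor genes, 31 had a read in at least 1 mouse and 26 had more than 3 reads in all 6 mice. The same 26 genes passed the filter on low values. Levels were compared between genes per length, as normalized CPM per kb of exonic sequence. On this scale Nr3c1, the glucocorticoid receptor, had the highest mean at 28.1 over the 6 mice, followed by Nr1h3 (LXR alpha) at 26.8 and Nr1h2 (LXR beta) at 22.9. These 3 genes held ranks 1 to 3 in every mouse, in an order that varied between mice, and with the longest transcript as length Nr1h2 ranked 1 and Nr3c1 ranked 3. Rarg (RAR gamma) was at rank 4 in each of the 6 mice, with a mean of 14.3. Esrra (ERR alpha) at 10.5 and Rara (RAR alpha) at 9.10 came next, and their ranks overlapped, at 5 to 6 and 5 to 8. Ppard (PPAR delta) at 6.44 and Nr2f6 at 6.36 were not separated by the spread over mice. A middle group of Nr2f2, Esr1, Nr2c1 and Nr2c2 lay between 4.50 and 3.91, with ranks of 9 to 12 that crossed between mice. Nr3c2, the mineralocorticoid receptor, was at 2.37 and Ppara (PPAR alpha) at 2.11. The other 12 genes tested had means of 0.122 to 1.42. With exonic length, Nr3c1 stood at the percentile 91.8 of all genes tested by level per kb and the lowest gene tested, Esrrb, at the percentile 1.62.

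**Figure D1:**
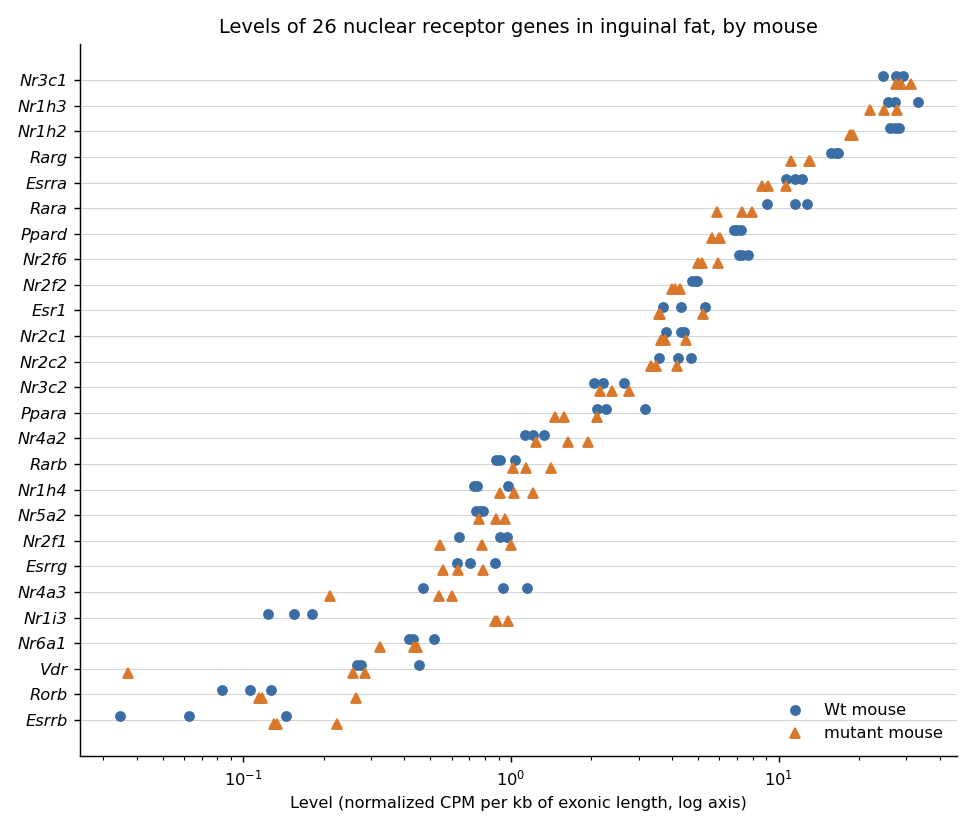
Level of each of the 26 receptor genes tested, in normalized CPM per kb of exonic length on a log axis, with 1 point per mouse (circles, 3 Wt mice, and triangles, 3 mutant mice), ordered by the mean over 6 mice. The glucocorticoid receptor gene and both LXR genes lead with means of 22.9 to 28.1, and the genotypes of Nr1h2 and Nr1i3 are visibly apart.

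Mutant and Wt mice were compared with limma, on log2(value + 0.5), over all 16868 genes that passed the filter, with p-values adjusted over all of them by the Benjamini-Hochberg method and an FDR threshold of 0.05. A difference on this scale understates the change of genes with low values. Of the 26 receptor genes tested, 4 passed, which is 15.4%, beside 8.11% of all genes tested. Nr1h2, Rarg and Nr2f6 were lower in mutant mice, 3 of 26 beside a background of 2.61%, and Nr1i3 was higher, 1 of 26 beside 5.5%. At an unadjusted p under 0.05, 8 receptor genes were lower and 1 was higher. The share of all genes tested at this unadjusted threshold was not counted, so such counts, here and below, have no background. Of all 1368 genes called, 67.8% were higher in mutant mice, and with library size as the only scaling 79.4% of 1284 were. Some genes tested, 1192 in all, share exonic bases with a gene on the other strand at 10 or more times their own level. They held 576 of the 928 genes called higher, and Nr1i3 and Rarb are the receptor genes among them. The backgrounds of 8.11% and 5.5%, used here and below, include these genes. In 7 of the 26 receptor genes every mutant mouse lay below every Wt mouse, a pattern that held for 15.7% of all genes tested, and in 1 gene every mutant mouse lay above, beside 14.9%. The log2 difference was below 0 for 17 of the 26 genes, beside 56.5% of all genes tested. The median log2 difference of the 26 genes was -0.16, and that of all genes tested was -0.05. For each of these 8 genes an exact permutation test (two-sided) gave p = 0.1, the smallest value that groups of 3 allow. The count depended on the tool and on single mice. edgeR's quasi-likelihood test called 2 of the 26 genes, DESeq2's Wald test called 5, and leaving out 1 mouse, whichever of the 6 it was, left 2 or 3.

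**Figure D2:**
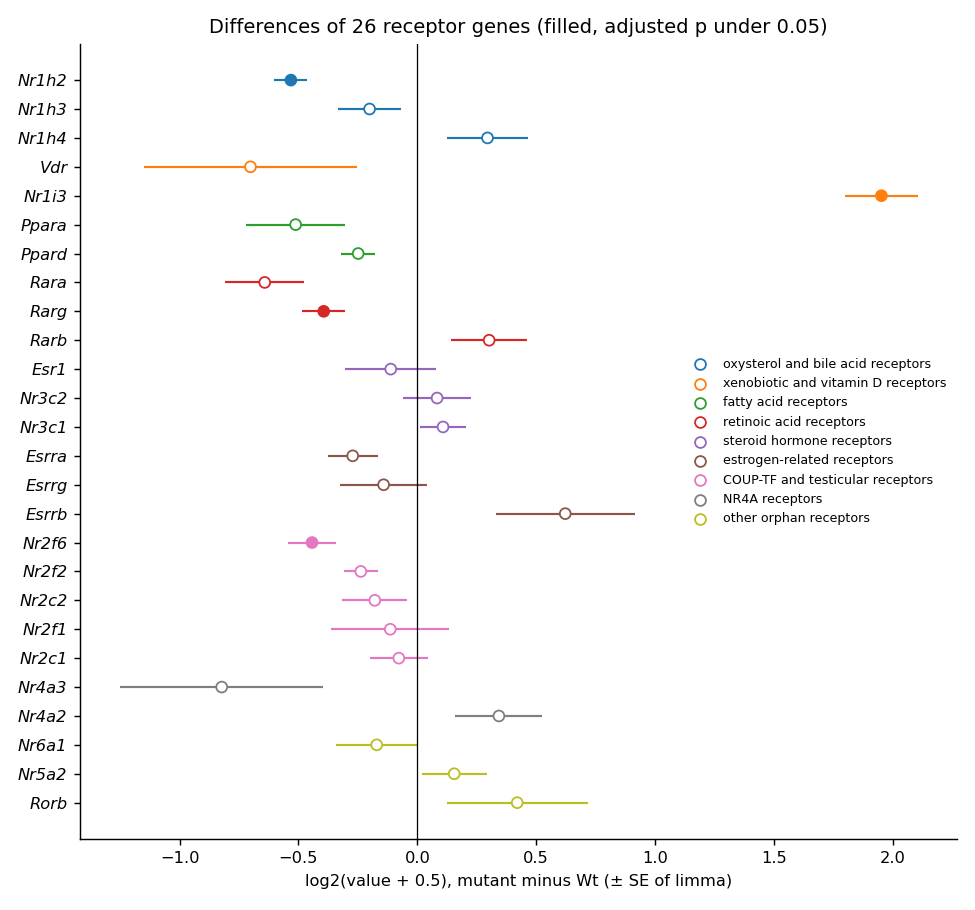
Log2 difference of each of the 26 receptor genes tested, mutant minus Wt, with the standard error of limma as bars, grouped by the kind of receptor. Filled points mark the 4 genes with an adjusted p under 0.05, of which Nr1h2, Rarg and Nr2f6 lie left of 0 and Nr1i3 lies at 1.95.

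The promoters of these 4 genes are shown because they are the receptor genes past the FDR, and because thyroid hormone receptors and CREB, the transcription factor the study followed, each bind a known short motif. The sequences are the 250 bases before the annotated start in RefSeq on GRCm38.p6, written 5′ to 3′ on the strand of the gene, with the most upstream window where a gene has several. Windows were found for 32 of the 34 genes. Capitals mark AGGTCA or its other strand TGACCT, the core bound by many nuclear receptors, and TGACG or its other strand CGTCA, the core of the cAMP response element.
Nr1h2, chr7:44553966-44554215, minus strand: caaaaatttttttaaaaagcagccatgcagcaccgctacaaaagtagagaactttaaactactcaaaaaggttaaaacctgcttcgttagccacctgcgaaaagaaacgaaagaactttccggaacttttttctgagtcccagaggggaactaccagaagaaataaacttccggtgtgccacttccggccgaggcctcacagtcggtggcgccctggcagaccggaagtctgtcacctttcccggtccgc
Rarg, chr15:102257523-102257772, minus strand: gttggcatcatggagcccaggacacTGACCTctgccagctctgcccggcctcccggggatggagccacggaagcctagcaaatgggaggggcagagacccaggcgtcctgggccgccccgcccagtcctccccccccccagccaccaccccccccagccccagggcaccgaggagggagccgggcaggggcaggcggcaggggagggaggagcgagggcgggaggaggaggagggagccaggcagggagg
Nr2f6, chr8:71381953-71382202, minus strand: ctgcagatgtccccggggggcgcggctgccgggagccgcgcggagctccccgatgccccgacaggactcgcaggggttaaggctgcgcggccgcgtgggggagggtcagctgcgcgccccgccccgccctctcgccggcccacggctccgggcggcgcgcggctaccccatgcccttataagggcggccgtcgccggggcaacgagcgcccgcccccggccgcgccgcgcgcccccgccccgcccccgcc
Nr1i3, chr1:171213720-171213969, plus strand: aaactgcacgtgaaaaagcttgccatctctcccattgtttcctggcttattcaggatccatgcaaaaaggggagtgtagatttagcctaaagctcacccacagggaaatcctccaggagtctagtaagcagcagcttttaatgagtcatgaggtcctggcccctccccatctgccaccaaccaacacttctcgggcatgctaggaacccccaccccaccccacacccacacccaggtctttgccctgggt
Of these 4 windows, the Rarg window alone held a motif, a single TGACCT. Across 32851 RefSeq windows of the same length, 14% held AGGTCA on either strand and 17.8% held TGACG. The 32 receptor genes had 47 windows, of which 5 held the first motif and 9 held the second, with 4 matches each of the second motif, counted on both strands with overlaps, in the windows of Nr4a2 and Nr4a3. GC content of these 4 windows differed widely, at 48.4% for Nr1h2, 74.4% for Rarg, 82.4% for Nr2f6 and 53.2% for Nr1i3. The Nr2f6 window held 42 CpG and the Nr1i3 window 2, beside a median of 6 over all windows. A match is a description of the letters only, and no binding was measured in these libraries.

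Nr1h2 (ENSMUSG00000060601, chromosome 7, 44549616 to 44553951, minus strand, GRCm38) encodes LXR beta, a sensor of oxysterols that is found in most tissues. Wt mice 1, 2 and 3 had 91.0, 87.3 and 94.8 normalized CPM, and mutant mice 1, 2 and 3 had 62.0, 63.6 and 62.7. Every mutant mouse was below every Wt mouse. The mean fell from 91.0 ± 3.75 (SD, n = 3) to 62.8 ± 0.823 (SD, n = 3), a log2 difference of -0.53 (SE 0.07, adjusted p = 0.00733, limma). Nr1h2 passed in 16 of 17 alternative settings, including all 6 that left out a mouse. The exception was a correction for GC content, in which the difference was -0.27 (adjusted p = 0.0849, limma).

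Nr1h3 (LXR alpha, chromosome 2), the LXR that is enriched in fat, liver and macrophages, was at 83.1, 64.7 and 68.5 normalized CPM in Wt and 69.9, 62.5 and 55.3 in mutant mice. The genotypes overlapped, and the log2 difference was -0.20 (SE 0.13, adjusted p = 0.385, limma). The level per kb of Nr1h3 and Nr1h2 was 28.7 and 27.1 in Wt mice and 24.9 and 18.7 in mutant mice. Nr1h4, the bile acid receptor FXR, was low, at 1.68 to 2.24 normalized CPM in Wt and 2.11 to 2.78 in mutant mice (log2 difference 0.30, SE 0.17, adjusted p = 0.343, limma).

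Nr1i3 (ENSMUSG00000005677, chromosome 1, 171213970 to 171220701, plus strand) encodes CAR, the constitutive androstane receptor, which is known for inducing drug-metabolising enzymes in liver. Wt mice had 0.80, 0.68 and 0.55 normalized CPM, from 19, 14 and 13 reads, and mutant mice had 3.93, 3.86 and 4.30, from 75, 86 and 92 reads. The lowest mutant mouse was thus far above the highest Wt mouse, and the ratio of the means was 5.98. The log2 difference was 1.95 (SE 0.15, adjusted p = 0.00169, limma), and it passed in all 17 alternative settings. Tomm40l, a gene on the opposite strand, shares 3304 of the 4414 exonic bases of Nr1i3 and was 14.1 times as abundant. Tomm40l itself was at 37.9, 31.6 and 32.0 normalized CPM in Wt and 36.1, 28.2 and 33.2 in mutant mice (log2 difference -0.06, SE 0.12, adjusted p = 0.788, limma). The strand setting of the authors' counting is not given in the sources used here, and without strand the reads of both genes cannot be told apart. Among the 1192 genes tested that share exonic bases with a gene on the other strand at 10 or more times their own level, 48.3% were called higher in mutant mice. Rarb was the other receptor gene of this kind. The part of the opposite strand in the Nr1i3 difference was not tested.

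Vdr, the vitamin D receptor, was at 2.56, 1.51 and 1.56 normalized CPM in Wt mice. In mutant mice 2 and 3 it was at 1.62 and 1.45, inside the Wt range, and in mutant mouse 1 it was at 0.21, from 4 reads. The log2 difference of -0.70 (SE 0.45, adjusted p = 0.378, limma) shrank to -0.20 without mutant mouse 1. This mouse also had the lowest sum of lymphocyte markers, 4.56 normalized CPM, and the part of lymphocytes in its Vdr level was not tested. Nr1i2, the pregnane receptor PXR, had no read in any mouse.

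Ppara and Ppard encode PPAR alpha and PPAR delta, fatty acid sensors that drive oxidation genes. Ppard was at 52.3, 51.2 and 54.3 normalized CPM in Wt and 45.1, 42.3 and 45.2 in mutant mice. The genotypes did not overlap, but the difference was small, -0.25 on the log2 scale (SE 0.07), and did not pass (adjusted p = 0.0941, limma). Ppara was at 12.2, 8.02 and 8.71 in Wt and 8.07, 5.61 and 6.04 in mutant mice. Mutant mouse 1 lay above Wt mouse 2, so the genotypes overlapped (log2 difference -0.51, SE 0.21, adjusted p = 0.198, limma). The order of the 6 mice by Ppara was the same as their order by the sum of 6 brown adipocyte markers, which was 153, 109 and 118 normalized CPM in Wt and 111, 71.0 and 82.5 in mutant mice. This match was noticed after the values were seen, and the part of brown adipocytes in the Ppara level was not tested.

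Of the 3 genes of retinoic acid receptors, which bind the active form of vitamin A, 1 passed the FDR. Rarg (ENSMUSG00000001288, chromosome 15, 102234938 to 102257517, minus strand) was at 71.3, 69.8 and 67.0 normalized CPM in Wt and 55.4, 55.6 and 47.3 in mutant mice, with no overlap. Its log2 difference was -0.39 (SE 0.09, adjusted p = 0.0483, limma), just inside the threshold. Rarg passed in 5 of 17 alternative settings and in none of the 6 that left out a mouse, where its adjusted p was 0.0688 to 0.162 (limma). Rara (ENSMUSG00000037992, chromosome 11, 98927818 to 98974942, plus strand) showed a larger difference with more spread. It was at 39.4, 50.4 and 56.0 in Wt and 25.8, 31.9 and 34.9 in mutant mice, again with no overlap. The mean was 48.6 ± 8.43 (SD, n = 3) against 30.8 ± 4.63 (SD, n = 3), a log2 difference of -0.64 (SE 0.17) that did not pass (adjusted p = 0.0712, limma). Rarb was at 4.62 to 5.45 in Wt and 5.38 to 7.44 in mutant mice (log2 difference 0.30, SE 0.16, adjusted p = 0.304, limma). It shares 1793 of 5265 exonic bases with Top2b on the other strand, which was 25.5 times as abundant. The genotypes of Rarb overlapped, unlike those of Rarg and Rara.

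**Figure D3:**
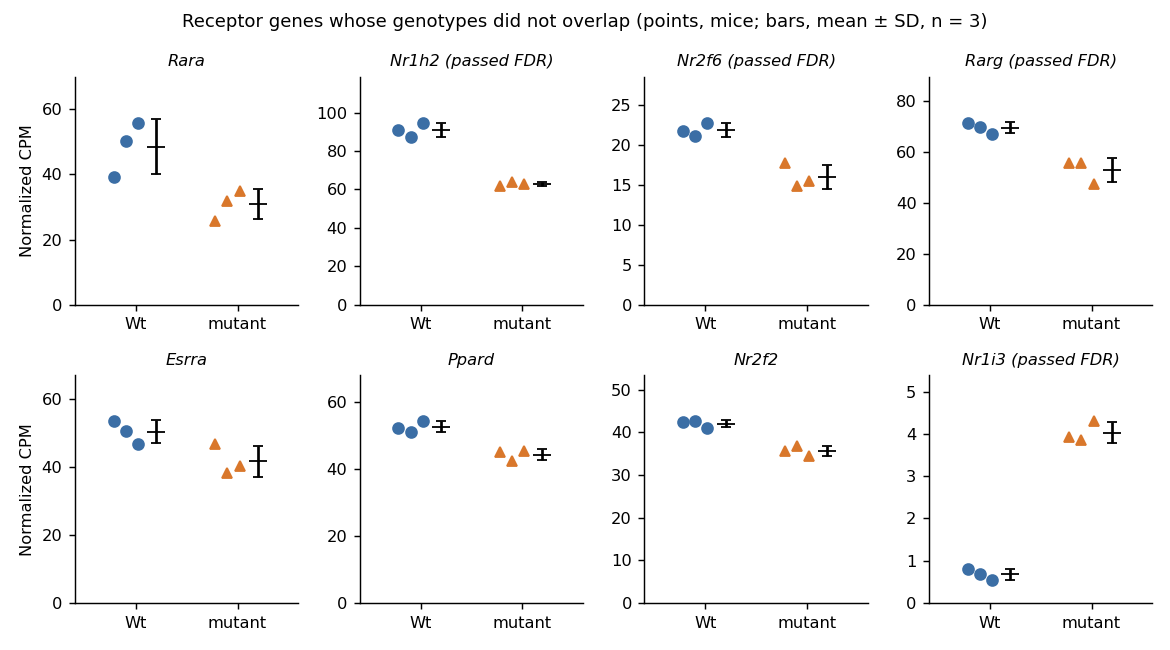
Normalized CPM in each mouse for the 8 receptor genes whose genotypes did not overlap, with all axes starting at 0 (circles, Wt, and triangles, mutant), and the mean with SD at the right of each group (n = 3). In 7 panels the mutant mice lie below the Wt mice, and in the panel of Nr1i3 they lie above, at 3.86 to 4.30 against 0.55 to 0.80.

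Of the 5 genes of steroid hormone receptors, 3 were tested and none of them passed, here or in any of the 17 alternative settings. Nr3c1 (ENSMUSG00000024431, chromosome 18), which encodes the glucocorticoid receptor, was at 212, 223 and 189 normalized CPM in Wt and 240, 211 and 221 in mutant mice. The log2 difference was 0.11 (SE 0.10, adjusted p = 0.521, limma). Nr3c2, the mineralocorticoid receptor, was at 13.2 to 17.1 in Wt and 14.0 to 17.9 in mutant mice (log2 difference 0.08, SE 0.14, adjusted p = 0.74, limma). Esr1, estrogen receptor alpha, was at 72.7, 59.1 and 50.7 in Wt and 71.1, 49.5 and 49.0 in mutant mice (log2 difference -0.11, SE 0.19, adjusted p = 0.739, limma). The spread of Esr1 within a genotype was larger than the difference between genotypes, and the order of the 6 mice was the same as by the sum of adipocyte markers, another match noticed after the values were seen. Esr2, estrogen receptor beta, had 1 to 7 reads per mouse and was not tested. Pgr, the progesterone receptor, had 64, 1 and 9 reads in Wt mice and 11, 0 and 3 in mutant mice and was not tested either. Wt mouse 1, with most of the Pgr reads, also had the highest sum of epithelial markers, and the part of epithelial cells was not tested.

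The estrogen-related receptors are orphan receptors that regulate mitochondrial genes. Esrra was at 53.5, 50.6 and 46.9 normalized CPM in Wt and 46.8, 38.1 and 40.2 in mutant mice. The highest mutant mouse was just below the lowest Wt mouse, 46.85 against 46.87, and the log2 difference of -0.27 (SE 0.10) did not pass (adjusted p = 0.178, limma). Esrrg was at 3.90 to 5.40 in Wt and 3.46 to 4.87 in mutant mice (log2 difference -0.14, SE 0.18, adjusted p = 0.656, limma). Esrrb was near the floor, with 5, 18 and 9 reads in Wt and 15, 18 and 29 in mutant mice (log2 difference 0.62, SE 0.29, adjusted p = 0.253, limma).

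The COUP-TF and testicular receptors often act as repressors that compete for the DNA sites of other receptors. Nr2f6 (ENSMUSG00000002393, chromosome 8, 71374123 to 71381960, minus strand), also called EAR2, was at 21.8, 21.2 and 22.8 normalized CPM in Wt and 17.7, 14.9 and 15.5 in mutant mice. All mutant mice were lower, with a log2 difference of -0.44 (SE 0.10, adjusted p = 0.0495, limma), which is barely inside the threshold. Nr2f6 passed in 6 of 17 alternative settings. Leaving out any single mouse other than mutant mouse 1 ended the call, and over the 6 settings that left out a mouse the adjusted p was 0.0446 to 0.173 (limma). Ocel1 on the other strand shares 1622 of its 2983 exonic bases at 0.93 times its level, and was at 14.6 to 19.8 in Wt and 16.6 to 18.0 in mutant mice.

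Nr2f2 (COUP-TFII), a repressor of adipogenesis in precursor cells, was at 42.4, 42.6 and 41.1 normalized CPM in Wt and 35.5, 36.8 and 34.3 in mutant mice. The genotypes did not overlap, yet the log2 difference of -0.24 (SE 0.07) did not pass (adjusted p = 0.104, limma). Nr2f1 (COUP-TFI) was at 3.27 to 4.91 in Wt and 2.78 to 5.12 in mutant mice (log2 difference -0.11, SE 0.25, adjusted p = 0.796, limma). Nr2c1 and Nr2c2, the testicular receptors TR2 and TR4, overlapped between genotypes as well. Nr2c1 was at 17.4 to 20.4 in Wt and 16.7 to 20.8 in mutant mice (log2 difference -0.08, SE 0.12, adjusted p = 0.713, limma). Nr2c2 was at 53.3 to 70.4 in Wt and 49.7 to 62.5 in mutant mice (log2 difference -0.18, SE 0.14, adjusted p = 0.447, limma), and it shares 4590 exonic bases with Mrps25 on the other strand, which had 0.449 times its level.

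The NR4A receptors are encoded by early response genes and act without a classical ligand. Nr4a2 was at 5.40, 4.91 and 4.59 normalized CPM in Wt and 7.86, 6.64 and 5.05 in mutant mice (log2 difference 0.34, SE 0.18, adjusted p = 0.307, limma). Nr4a3 was at 2.81, 5.59 and 6.90 in Wt and 1.26, 3.23 and 3.60 in mutant mice (log2 difference -0.82, SE 0.43, adjusted p = 0.297, limma). The genotypes overlapped for both genes. The order of the 6 mice by Nr4a3 was the same as by the sum of 7 lymphocyte markers, which was 278, 624 and 747 in Wt and 4.56, 383 and 559 in mutant mice. This match was also noticed after the values were seen, and the part of lymphocytes in the Nr4a3 level was not tested. Of 7 other early response genes, 3 passed the FDR as higher in mutant mice, Egr1 at 35.3 ± 5.72 against 74.4 ± 9.50 (SD, n = 3 each), Fosb and Fos, beside a background of 5.5%. The other 4 genes did not pass, with log2 differences of -0.74 for Junb, -0.22 for Ier2, 0.05 for Nr4a1 and 0.24 for Atf3.

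Of the remaining orphan receptors, Nr5a2 (LRH-1) was at 4.38 to 4.65 normalized CPM in Wt and 4.49 to 5.61 in mutant mice, and Nr6a1 (GCNF) at 4.52 to 5.59 and 3.50 to 4.82, with adjusted p of 0.507 and 0.558 (limma). Rorb was at 0.93 to 1.41 in Wt mice, and mutant mice 1, 2 and 3 had 2.93, 1.30 and 1.26 (log2 difference 0.42, SE 0.30, adjusted p = 0.419, limma), and the difference was 0.10 without mutant mouse 1. The receptors typical of other organs were near or at 0. Nr2e3, a retinal receptor, had 1 read in a single mouse, Hnf4a had at most 2 reads and Hnf4g had 2 reads in mutant mouse 1, all at or under the floor of 3 reads. Nr0b1 (DAX1) and Nr0b2 (SHP), which lack the usual DNA-binding domain, had no read in any mouse.

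The 3 genes called lower shared a high GC content of their exons, which the choice of genes did not use, at 60.9% for Nr1h2, 58.4% for Rarg and 66% for Nr2f6. Among all genes tested with a GC content of 55% or more, 8.58% of 3812 were called lower in mutant mice, and among those under 55%, 0.851% of 13047. The receptor genes followed with 3 of 8 and 0 of 18. For the 18 genes, 2 were lower at an unadjusted p under 0.05 in limma, and edgeR, DESeq2 and limma-voom also called 0 lower. The median log2 difference of the 8 receptor genes at 55% or more was -0.33, beside -0.21 for all genes of that range, and that of the other 18 was -0.10, beside -0.01. When each mouse was centred within 20 bins of GC content, no receptor gene was called lower with limma and Nr1i3 was still called higher, at 2.01 (adjusted p = 0.00148, limma), while 87.5% of the 1004 genes called were higher. At an unadjusted p under 0.05 before that correction, 6 of the 8 genes at 55% or more were lower, with no share counted over all genes of that range.

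**Figure D4:**
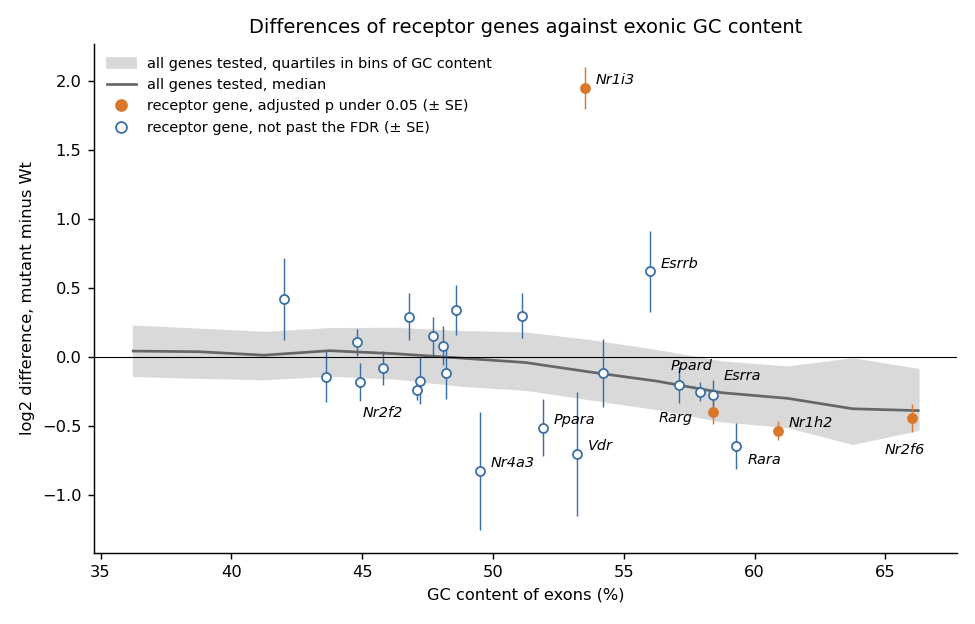
Log2 difference of the 26 receptor genes tested against the GC content of their exons (points with the SE of limma), over the median and quartiles of all genes tested in bins of GC content (line and band). The median of all genes slopes down above 50% GC, and the 3 genes called lower lie at 58.4% to 66% GC, at or below the line.

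Genes that these receptors are known to act on were examined as 7 lists. Among 12 known targets of the glucocorticoid receptor, all tested, 4 were higher in mutant mice and 0 lower, beside a background of 5.5% called higher. Tsc22d3, encoding GILZ, was at 100, 108 and 93.5 normalized CPM in Wt and 146, 151 and 157 in mutant mice (log2 difference 0.59, SE 0.08, adjusted p = 0.0102, limma). Fkbp5, a chaperone of the receptor, was at 49.4, 50.9 and 52.2 in Wt and 67.1, 64.0 and 62.7 in mutant mice (log2 difference 0.34, SE 0.07, adjusted p = 0.0352, limma). Dusp1, a MAP kinase phosphatase, rose by 0.69 (SE 0.11, adjusted p = 0.0155, limma) and Sgk1, a kinase that controls ion transport, by 0.49 (SE 0.10, adjusted p = 0.0394, limma) on the log2 scale. For each of these 4 genes every mutant mouse lay above every Wt mouse, a pattern that held for 14.9% of all genes tested. It also held for Sult1a1, a target that did not pass. The genotypes of Nr3c1 itself overlapped. The other 8 genes did not pass, among them the abundant Klf9 at 139 ± 25.7 against 143 ± 24.5 and Sult1a1 at 125 ± 17.9 against 196 ± 39.8 (SD, n = 3 each). Per1 and Pdk4 were at -0.08 and -0.19. Of the 4 genes called, Fkbp5 passed in none of the 6 settings that left out a mouse, Sgk1 in 1, Dusp1 in 3 and Tsc22d3 in 5, and no target was lower at an unadjusted p under 0.05 or by edgeR, DESeq2 or limma-voom. With the correction for GC content, 3 targets were called higher, and Sgk1 was not (adjusted p = 0.066, limma). Fkbp5 was close to the threshold there (adjusted p = 0.0452, limma). Dusp1 and Sgk1 are also early response genes, and the sum of 7 immediate early genes was 106 to 139 in Wt and 148 to 169 in mutant mice. Its part in the difference was not tested.

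Among 8 LXR targets tested of 10, 1 was called lower in mutant mice, beside a background of 2.61%. Srebf1, the lipogenic transcription factor, was at 448, 343 and 339 normalized CPM in Wt and 251, 196 and 199 in mutant mice (log2 difference -0.80, SE 0.16, adjusted p = 0.0304, limma). With the correction for GC content its adjusted p was 0.0864, and Srebf1 passed in 1 of the 6 settings that left out a mouse, that without mutant mouse 1 (limma). Pltp, at -0.71 (adjusted p = 0.0507, limma), and Abcg1, at -0.79 (adjusted p = 0.14, limma), did not overlap between genotypes but did not pass, and Abca1 was at 212 to 219 in Wt and 209 to 238 in mutant mice. Scd1, the most abundant of the list, was at 34120 ± 5711 against 30570 ± 5859 (SD, n = 3 each). None of the 8 was higher by limma, edgeR, DESeq2 or limma-voom, or at an unadjusted p under 0.05. DESeq2 called 3 of the 8 lower, 3 were lower at an unadjusted p under 0.05 in limma, and edgeR and limma-voom called 1.

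Of 10 genes tested among 14 targets of PPAR alpha and delta, 1 was called lower, beside the background of 2.61%. Cpt1a, which admits fatty acids to mitochondria, was at 86.4, 86.3 and 90.1 normalized CPM in Wt and 54.5, 65.1 and 52.2 in mutant mice (log2 difference -0.62, SE 0.10, adjusted p = 0.0159, limma). It passed in 2 of the 6 settings that left out a mouse, those without mutant mouse 1 and without mutant mouse 2, with an adjusted p of up to 0.0734 in the others (limma). The paper counts Cpt1a among thyroid hormone-dependent genes and reported no significant difference for it in inguinal fat, at an FDR above 0.05. Its methods do not name the test used, so the reason for the unlike results is not known. The other PPAR targets tested did not pass, among them the abundant Acadm at 352 ± 55.3 against 370 ± 67.6 (SD, n = 3 each). Among 10 retinoid enzymes and carriers tested of 13, 1 was higher and 1 lower, beside backgrounds of 5.5% and 2.61%. Aldh1a1, which makes retinoic acid, was at 137, 119 and 86.8 in Wt and 247, 236 and 183 in mutant mice (log2 difference 0.97, SE 0.20, adjusted p = 0.0344, limma). Cyp26b1, which degrades retinoic acid, was at 16.4, 19.6 and 21.3 in Wt and 6.39, 11.5 and 10.5 in mutant mice (log2 difference -1.01, SE 0.23, adjusted p = 0.0496, limma). The genotypes of both enzymes did not overlap. With a mouse left out, Aldh1a1 passed in 2 of 6 settings, those without Wt mouse 1 and without mutant mouse 3, and Cyp26b1 in 1, that without mutant mouse 1. edgeR called none of the 10 lower, and with the correction for GC content the adjusted p of Cyp26b1 was 0.101 (limma). Rbp4, the retinol carrier and the other abundant gene of this list, was at 176 ± 38.3 against 269 ± 62.5 (SD, n = 3 each, adjusted p = 0.148, limma).

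Of the steroid enzymes, 9 of 10 symbols were matched and 7 genes were tested, and 0 passed in limma, edgeR and limma-voom, while DESeq2 called 3 higher. At an unadjusted p under 0.05 in limma, 3 were higher and 1, H6pd, was lower. The 3 were Sult1e1, Akr1c14 and Akr1c18, with means 2.34, 2.03 and 1.61 times as high in mutant mice. Their adjusted p was 0.0741, 0.0739 and 0.0594 (limma). Every mutant mouse lay above every Wt mouse in these 3 genes, beside 14.9% of all genes tested. In H6pd every mutant mouse lay below, beside 15.7%. Hsd11b1, which regenerates active glucocorticoid, was at 86.8 ± 13.6 in Wt and 115 ± 21.6 in mutant mice (SD, n = 3 each, adjusted p = 0.223, limma), and H6pd, which supplies its cofactor, at 306 ± 44.4 against 223 ± 38.6 (SD, n = 3 each, adjusted p = 0.148, limma). Among 7 ERR targets, 1 was called lower, beside the background of 2.61%. Ppargc1b, a coactivator of the ERRs, was at 12.7, 11.3 and 12.4 in Wt and 6.34, 8.03 and 7.16 in mutant mice (log2 difference -0.72, SE 0.13, adjusted p = 0.0223, limma). It passed in 1 of the 6 settings that left out a mouse, that without mutant mouse 1, and the correction for GC content ended the call at -0.49 (adjusted p = 0.0987, limma). The other ERR targets, such as Atp5b at 1456 ± 200 against 1519 ± 294 (SD, n = 3 each), did not pass. Of 9 targets of the bile acid, xenobiotic and vitamin D receptors, none had enough reads to be tested, and their sum was 0.42 to 0.92 normalized CPM in Wt and 0.52 to 1.66 in mutant mice. Cyp2b10, the best known target of CAR, was at 0.34, 0.39 and 0.13 in Wt and 0.16, 0.54 and 0.33 in mutant mice. These values came from 8, 8 and 3 reads in Wt and 3, 12 and 7 in mutant mice, and the genotypes overlapped. Those of Cyp3a11 and Abcb11 in this list did not, at no more than 4 reads in any mouse. With so few reads, these targets were not compared with Nr1i3.

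**Figure D5:**
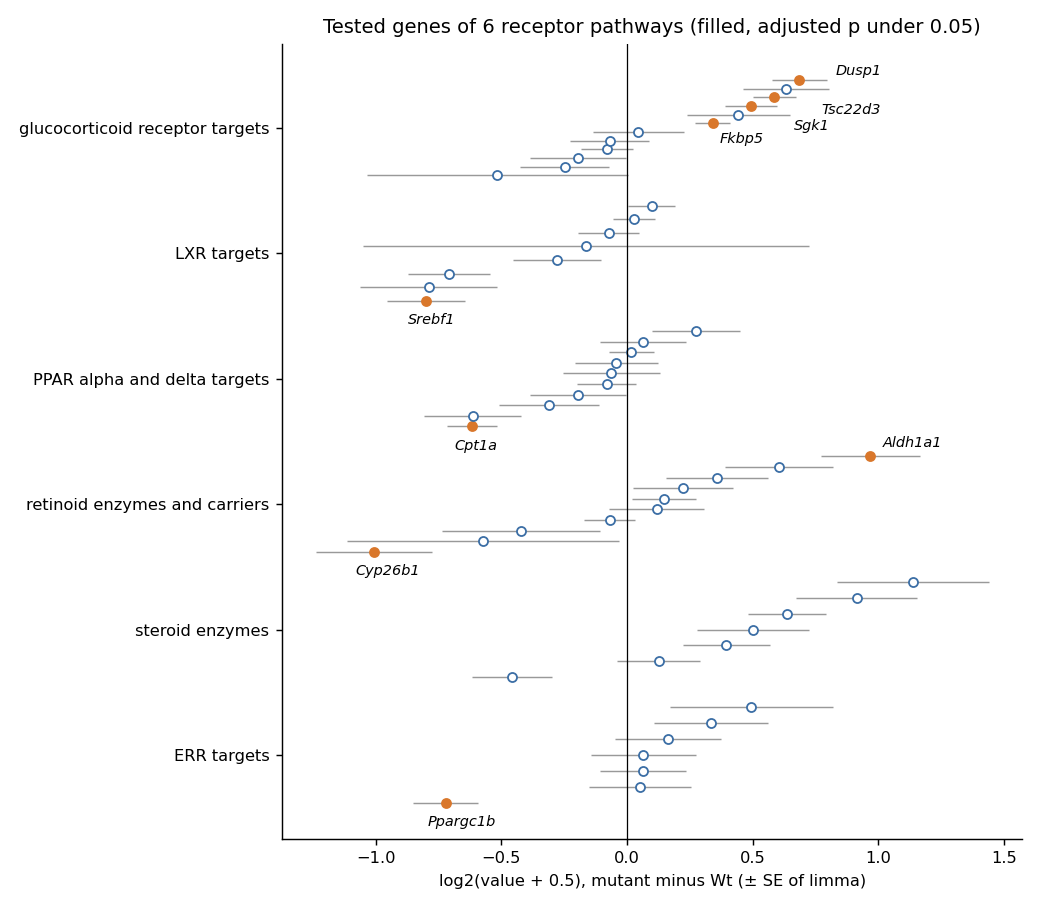
Log2 difference, mutant minus Wt, of each gene tested in 6 lists of genes tied to these receptors, with the SE of limma as bars. The filled points with an adjusted p under 0.05 are 4 glucocorticoid receptor targets and Aldh1a1 at the right of 0, and Srebf1, Cpt1a, Cyp26b1 and Ppargc1b at the left.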

How the data were processed

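Total RNA of inguinal fat was sequenced in 3 mutant and 3 Wt mice, 1 library each, by a core facility. The submitters' processing notes name Bowtie2 2.1.0, RSEM 1.2.15, edgeR and mm10, and the strand setting and annotation are not given in the sources used here. The deposited values are a normalized signal per gene, reads scaled to CPM with a further factor for each mouse. For 100% of the values the recovered reads were whole within 0.1 reads, and the reads were 19607423 to 24228381 per mouse. Genotypes were compared with limma 3.58.1 (R 4.3.3, mean-variance trend) on log2(value + 0.5), with Benjamini-Hochberg adjustment over the 16868 genes that filterByExpr (edgeR 4.0.16) kept from the recovered reads. No source says how the mice were related, and the p-values measure only the spread between these mice.

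Coordinates, exonic length (union of exons), GC content and opposite-strand overlaps came from GENCODE M21 on GRCm38, which held 99.8% of the identifiers. Promoters were read from RefSeq on GRCm38.p6, and Nr3c1 and Hnf4g had no window. In 27 cases a symbol had become a date. The genes named were all 34 receptor genes and, of each list, every gene past the FDR and the 2 with the highest mean, of which 1 is not reported here. Where others are named, they were chosen after their values were seen. The receptor genes and the lists were chosen with earlier results of these data known. Alternatives were other scalings, tests (edgeR's quasi-likelihood test, DESeq2 1.42.0, limma-voom), filters and pseudocounts, an FDR of 0.1, a replicate block, centring in 20 bins of GC content and leaving out each mouse. The script was tested on simulated data. The other steps used Python 3.11.15, pandas 2.3.3, SciPy 1.17.1 and Matplotlib 3.10.9.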

Additional observations from a re-analysis of the deposited data

How the results depend on the processing

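The number of receptor genes called, 4, became 2 with edgeR's quasi-likelihood test, 2 without a low-value filter, 2 with at least 10 reads in every mouse, 10 with the replicate block, 1 after centring by GC content and 2 to 3 when a mouse was left out. For the number called lower, 3, the same settings gave 1, 1, 1, 9, 0 and 1 to 2, and an FDR of 0.1 gave 5. The number of all genes called, 1368, became 2170 with DESeq2's Wald test, 598 with at least 10 reads in every mouse, 4063 with the block, 2263 at an FDR of 0.1 and 547 to 1032 without a mouse (547 without Wt mouse 2). The 9 genes called in the pathway lists became 16 with DESeq2's Wald test, 21 with the block, 5 after centring by GC content, 14 at an FDR of 0.1 and 1 to 7 without a mouse (7 without mutant mouse 1). The cause was not tested. The block rests on mouse numbers alone, and no source says that the numbers mark pairs. The deviations of same-numbered mice correlated at 0.686, 0.0573 and 0.56. Correlations of differently numbered mice were not computed, so these values do not decide whether the mice are paired. The main comparison treated the mice as unpaired.

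The median log2 difference of the receptor genes stayed below 0 in all 17 alternatives, at -0.23 to -0.09. Single genes kept their side of the threshold in 406 fits of receptor genes, and in 24 a call was lost and in 7 gained. Leaving out a mouse moved the difference of Esr1 over -0.287 to 0.023, that of Nr3c2 over -0.010 to 0.185 and that of Nr2f1 over -0.298 to 0.090, with the sign changed without Wt mouse 1 for Esr1 and without mutant mouse 1 for Nr3c2 and Nr2f1. Ranks by level moved by at most 2 with the longest transcript as length, which put Nr1h2 first in place of Nr3c1. At this depth, Esr2, Pgr, Hnf4a, Hnf4g and Nr2e3 were too low to compare.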

Other observations

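In the comparison of 26 receptor genes with the sums of 9 marker lists, 234 pairs in all, the 6 mice stood in the same order in 4 pairs and in the opposite order in 2. The 4 pairs were Ppara with brown adipocyte markers, Esr1 with adipocyte markers, Nr4a3 with lymphocyte markers and Nr4a2 with adipose progenitor markers, which summed to 3224, 2873 and 2602 normalized CPM in Wt and 4192, 3731 and 2979 in mutant mice. Nr2c2 stood in the opposite order to the progenitor markers, and Rarg in the opposite order to the immediate early genes. With 6 mice and so many pairs these matches are descriptions, chosen after the values were seen.

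Markers of brown adipocytes included 1 call, Ucp1, at 12.7 ± 4.61 normalized CPM in Wt and 3.40 ± 0.148 in mutant mice (SD, n = 3 each, log2 difference -1.69, adjusted p = 0.0187, limma). Skeletal muscle markers included 1 call, Myh1, at 159 ± 124 in Wt and 2259 ± 236 in mutant mice (SD, n = 3 each, adjusted p = 0.0208, limma), which edgeR and DESeq2 also called and limma-voom did not. At an unadjusted p under 0.05, 6 of the 9 muscle markers were higher in limma. Beside Myh1 these were Myh2, Myh7, Myl2, Tnni1 and Tnnc1, whose genotypes did not overlap and whose means were 4.53 to 6.60 times as high in mutant mice. The largest parts of the sum of the muscle markers were Myh4, Acta1 and Ckm, whose genotypes overlapped. Myh4 was at 8708 ± 3241 in Wt and 7800 ± 2194 in mutant mice (SD, n = 3 each). Acta1 was at 3289 ± 1166 against 5253 ± 1133, and Ckm at 2675 ± 1007 against 2935 ± 748 (SD, n = 3 each). The sum does not show the difference of the 6 genes. Of the adipocyte, macrophage, lymphocyte, epithelial and adipose progenitor markers, 0 passed in limma, edgeR's quasi-likelihood test or limma-voom, while DESeq2 called 1 adipocyte marker higher and 1 lower, 2 epithelial markers and 1 macrophage marker lower and 2 progenitor markers higher. At an unadjusted p under 0.05, limma had 1 adipocyte marker and 3 progenitor markers higher, and 1 epithelial and 1 macrophage marker lower. The Abcg5 and Abcg8 genes, LXR targets typical of liver and gut, were too low to test. Abcg8 was at 0 in each Wt mouse and at 0.10, 0.36 and 0.28 normalized CPM in mutant mice. These values came from 2, 8 and 6 reads, near the floor of 3 reads. Slc10a1, a gene of another list, likewise had 0 reads in each Wt mouse and 0, 3 and 1 in mutant mice.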
